A study of Mus musculus with 4 samples.

Results

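The synaptotagmins described here are 10 of the 17 measured members of the family, all except the fast release sensors Syt1, Syt2 and Syt9, the slow sensor Syt7, and Syt8, Syt14 and Syt15. They were chosen by name, as probe sets that the platform annotation gives exactly 1 gene symbol, and all 10 (Syt3, Syt4, Syt5, Syt6, Syt10, Syt11, Syt12, Syt13, Syt16 and Syt17) were found, each with 1 probe set, among 19938 genes. Expression had been read on Affymetrix mouse Gene 1.0 ST arrays from cortical neurons of newborn pups (postnatal day 0, mixed SV129 and C57BL/6 background) that were infected at 5 days in vitro and lysed at 14 to 15 days. The knockdown cultures (n = 2) carried lentiviral shRNAs against calmodulin. The rescue cultures (n = 2) also received wild-type calmodulin in a form resistant to these shRNAs, and control cultures carried a control lentivirus called L309. Pups were Syt1-deficient or wild type per the labels, which do not say which culture came from which. Each value is the ratio of a knockdown or rescue array to the control array of the same repeat, so 0 on the log2 scale is equality with control, and knockdown and rescue of a repeat are divided by a shared control array.

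Synaptotagmins are proteins of vesicle and plasma membranes with a pair of C2 domains, folds that in some members bind calcium and then bind lipid membranes and SNARE proteins, so that vesicles fuse. Fast transmitter release rests on a few members, while the genes treated here serve other steps, such as peptide and growth factor secretion, receptor trafficking at the postsynaptic side and membrane retrieval, or have calcium-independent C2 domains. Calmodulin, the protein lowered in these cultures, is a separate calcium sensor that drives kinases and the phosphatase calcineurin, and through them transcription that depends on neuronal activity.

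Promoter sequence is shown for Syt10 and Syt16, since these are the genes lower in the knockdown than in the rescue, without overlap, whose start was in the RefSeq promoter table (GRCm38.p6). That table held 5 of the 10 genes, namely Syt3, Syt6, Syt10, Syt11 and Syt16. Each sequence is the 250 bases before the annotated start, Syt10 at chr15:89841861-89842110 on the minus strand and Syt16 at chr12:73997527-73997776 on the plus strand. Capitals mark matches on either strand to TGACG, the core of the site bound by CREB, a factor activated by calmodulin-dependent kinases, to TCGTG, the core bound by the activity-induced factor NPAS4, or to GGGCGG, the GC box bound by Sp1.
Syt10 promoter: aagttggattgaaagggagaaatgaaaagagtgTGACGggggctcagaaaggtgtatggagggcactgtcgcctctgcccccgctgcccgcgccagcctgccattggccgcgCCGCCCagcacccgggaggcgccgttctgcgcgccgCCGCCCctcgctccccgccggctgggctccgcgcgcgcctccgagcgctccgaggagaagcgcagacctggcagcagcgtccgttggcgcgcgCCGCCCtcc
Syt16 promoter: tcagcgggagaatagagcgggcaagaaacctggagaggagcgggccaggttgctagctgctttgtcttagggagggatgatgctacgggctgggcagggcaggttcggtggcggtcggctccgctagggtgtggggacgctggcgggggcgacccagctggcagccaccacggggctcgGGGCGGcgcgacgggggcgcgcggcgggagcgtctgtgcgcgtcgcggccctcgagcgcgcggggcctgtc
The Syt10 window held 1 match to TGACG, starting at position -217 from the start, and 3 to the GC box (as CCGCCC on the strand shown). The Syt16 window held 1 GC box and no match to TGACG. Neither window held TCGTG, and no matches overlapped. Of 32851 promoters in the table, 17.8% held TGACG, 13.3% TCGTG and 32.7% the GC box within the same 250 bases, so each of these matches is common. A match is a run of letters and was not tested as a site.

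The targeted calmodulin genes Calm2 and Calm3 were below control in every sample. Calm2 had log2 ratios of -1.08 and -1.72 in the knockdown, against -0.84 and -1.28 in the rescue, and Calm3 had -1.32 and -2.40 in the knockdown, against -2.41 and -3.55 in the rescue. Over all genes the log2 ratios had standard deviations of 0.242 and 0.349 in the knockdown repeats and 0.243 and 0.232 in the rescue repeats, so knockdown repeat 2 was the most widely spread. The ratios carry no signal levels, so the cell type of the cultures could not be checked against its markers, and levels cannot be compared between genes.

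The comparison of knockdown with control asked what calmodulin depletion did to these transcripts. Syt5, Syt4, Syt16 and Syt17 had the lowest knockdown means, between 63.4% and 67.0% of control, and Syt12 had the highest, at 152% of control. None of the 10 passed an adjusted p of 0.05 in limma (0 of 10, against 0.306% of all genes), and 4 had an unadjusted p under 0.05 (Syt4, Syt5, Syt12 and Syt16, against 16.0% of all genes). Adding the repeat to the model as a block (the replicate block), Syt4 and Syt5 passed (2 of 10, against 5.39% of all genes). Against control, these block p-values leave out the spread of the shared control arrays and are too small. In both repeats 6 of the 10 were below control (31.1% of all genes), 2 were above it (30.5%) and 2 lay on opposite sides (38.3%). Among the 6, Syt13 and Syt3 were near 0 in repeat 1, at -0.00046 and -0.02. The median of the 10 means was -0.19 on the log2 scale, against 0.00196 for all genes tested, and was -0.34 without knockdown repeat 1.

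**Figure D1:**
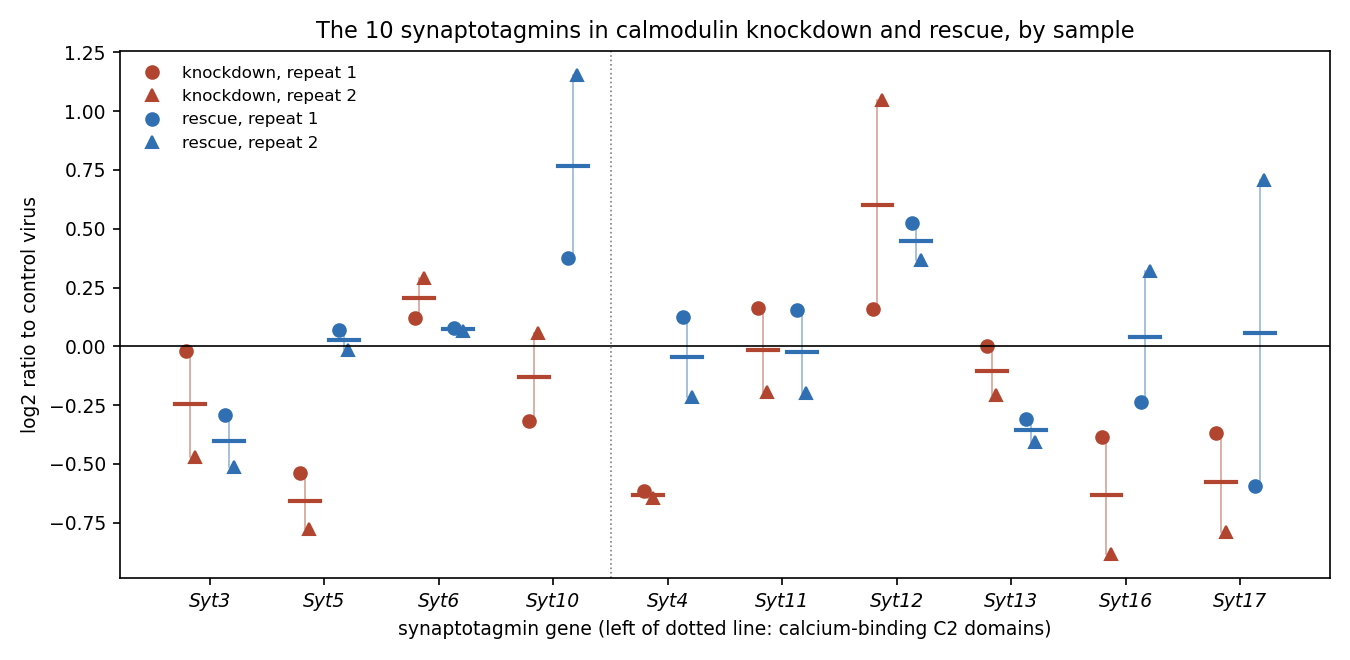
Log2 ratio to control virus for each of the 10 synaptotagmins, with knockdown left (red) and rescue right (blue), circles for repeat 1, triangles for repeat 2 and thick bars for the mean of 2. Syt4 and Syt5 have both knockdown points below -0.5 and rescue points about 0, while the Syt17 rescue points lie on opposite sides of control.

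Among the genes whose C2 domains bind calcium, Syt5 was the lowest. Syt5 belongs to secretory vesicles, and its name and that of Syt9 have been exchanged between naming systems, so the gene meant here is the annotation's Syt5 (Entrez 53420). Its log2 ratios were -0.54 and -0.77 in the knockdown, against 0.07 and -0.02 in the rescue. The knockdown samples were both low and the rescue samples both near control, without overlap. The knockdown mean of -0.66 (SE 0.12, n = 2) had an adjusted p of 0.0737 in limma, or 0.0173 under the replicate block. The rescue mean was 0.03 (SE 0.12, n = 2, adjusted p = 0.978).

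Syt10, which in mouse olfactory bulb neurons controls the secretion of the growth factor IGF-1 and is known as a gene induced by strong activity, had the highest rescue mean of the 10. It had log2 ratios of -0.32 and 0.06 in the knockdown, against 0.38 and 1.15 in the rescue. Knockdown samples straddled control and rescue samples were both above it, without overlap. The knockdown mean was -0.13 (SE 0.19, n = 2, adjusted p = 0.774). The rescue mean was 0.77, or 170% of control (SE 0.19, n = 2), with an adjusted p of 0.467 in limma.

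Syt3, a calcium sensor of plasma membranes linked to the internalization of AMPA receptors and to vesicle replenishment, had log2 ratios of -0.02 and -0.47 in the knockdown, against -0.29 and -0.51 in the rescue. All 4 samples were at or below control and the groups overlapped. Its knockdown mean was -0.25 (SE 0.14, n = 2, adjusted p = 0.447) and its rescue mean -0.40 (SE 0.14, n = 2, adjusted p = 0.610).

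For Syt6, best known from the exocytosis of the sperm acrosome, the log2 ratios were 0.12 and 0.29 in the knockdown, against 0.08 and 0.07 in the rescue. The samples were all slightly above control, and the knockdown samples lay just above the rescue samples. Knockdown and rescue means were 0.21 and 0.07 (SE 0.12 each, n = 2 each, adjusted p = 0.436 and 0.922).

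The related genes Syt4 and Syt11, which share a substitution in a calcium-binding loop of the first C2 domain, had unlike knockdown values. Syt4, an activity-inducible protein of vesicles that carry the neurotrophin BDNF, had log2 ratios of -0.62 and -0.65 in the knockdown, against 0.12 and -0.22 in the rescue. Its knockdown samples were nearly equal to each other and lay below both rescue samples. The knockdown mean was -0.63 (SE 0.13, n = 2, adjusted p = 0.0893, or 0.0217 under the replicate block) and the rescue mean -0.05 (SE 0.13, n = 2, adjusted p = 0.959).

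Syt11, an inhibitor of endocytosis, had log2 ratios of 0.16 and -0.20 in the knockdown, against 0.15 and -0.20 in the rescue. Within a repeat the groups were nearly identical, and the repeats differed from each other by 0.36 in the knockdown and 0.35 in the rescue. Both groups of a repeat are divided by the same control array, so a shift of that array moves both values together. Syt11 means were -0.02 in both groups (SE 0.14, n = 2 each, adjusted p = 0.968 in the knockdown and 0.984 in the rescue), and the knockdown mean turned to 0.0118 under quantile normalization.

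Syt12 and Syt13 have C2 domains that lack calcium-binding residues. Syt12, a vesicle protein phosphorylated by protein kinase A, had log2 ratios of 0.16 and 1.05 in the knockdown, against 0.52 and 0.37 in the rescue. All 4 samples were above control, and the knockdown samples lay on either side of the rescue samples. Its knockdown mean was 0.60 (SE 0.20, n = 2, adjusted p = 0.200) and its rescue mean 0.45 (SE 0.20, n = 2, adjusted p = 0.676).

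The log2 ratios of Syt13 were -0.00046 and -0.21 in the knockdown, against -0.31 and -0.41 in the rescue. Here the rescue samples were the lower ones, without overlap. The knockdown mean was -0.10 (SE 0.12, n = 2, adjusted p = 0.710) and the rescue mean -0.36 (SE 0.12, n = 2, adjusted p = 0.580).

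Syt16 and Syt17 lack the membrane-spanning segment of the other members. Syt16 had log2 ratios of -0.39 and -0.88 in the knockdown, against -0.24 and 0.32 in the rescue. Its knockdown samples were both below its rescue samples, by a narrow margin in repeat 1. The knockdown mean was -0.63 (SE 0.17, n = 2, adjusted p = 0.146) and the rescue mean 0.04 (SE 0.17, n = 2, adjusted p = 0.975).

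Syt17, also called B/K and linked to the Golgi and to axon growth, had log2 ratios of -0.37 and -0.79 in the knockdown, against -0.59 and 0.71 in the rescue. The knockdown samples were both low, while the rescue samples lay 1.30 apart on opposite sides of control, and the groups overlapped. Its means were -0.58 in the knockdown (SE 0.27, n = 2, adjusted p = 0.335) and 0.06 in the rescue (SE 0.27, n = 2, adjusted p = 0.979).

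The knockdown values depended on single samples. Without knockdown repeat 1 the knockdown value is that of repeat 2 alone, at -0.77 for Syt5, 1.05 for Syt12 and -0.88 for Syt16. Without knockdown repeat 2 these values were -0.54, 0.16 and -0.39. In such a fit the lone sample is assumed to vary like the rescue, so its p-values are not read here. The median absolute gap between repeats of the 10 genes was 0.36 in the knockdown and 0.28 in the rescue, against 0.20 and 0.19 for all genes.

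Rescue was set against control to ask where these transcripts stood once resistant calmodulin was supplied. In limma 0 of the 10 passed, as did 0% of all genes, and 3 had an unadjusted p under 0.05 (Syt3, Syt10 and Syt13, against 7.44% of all genes). Under the replicate block 0 of the 10 passed, against 0.125% of all genes. In both repeats 3 were above control (24.9% of all genes), 2 were below it (29.8%) and 5 lay on opposite sides (45.3%). The median of the 10 means was 0.03, against -0.01 for all genes, and was 0.07 without rescue repeat 2. A fit without either knockdown sample rests on the rescue samples alone for its spread, and it leaves the rescue means as they were.

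**Figure D2:**
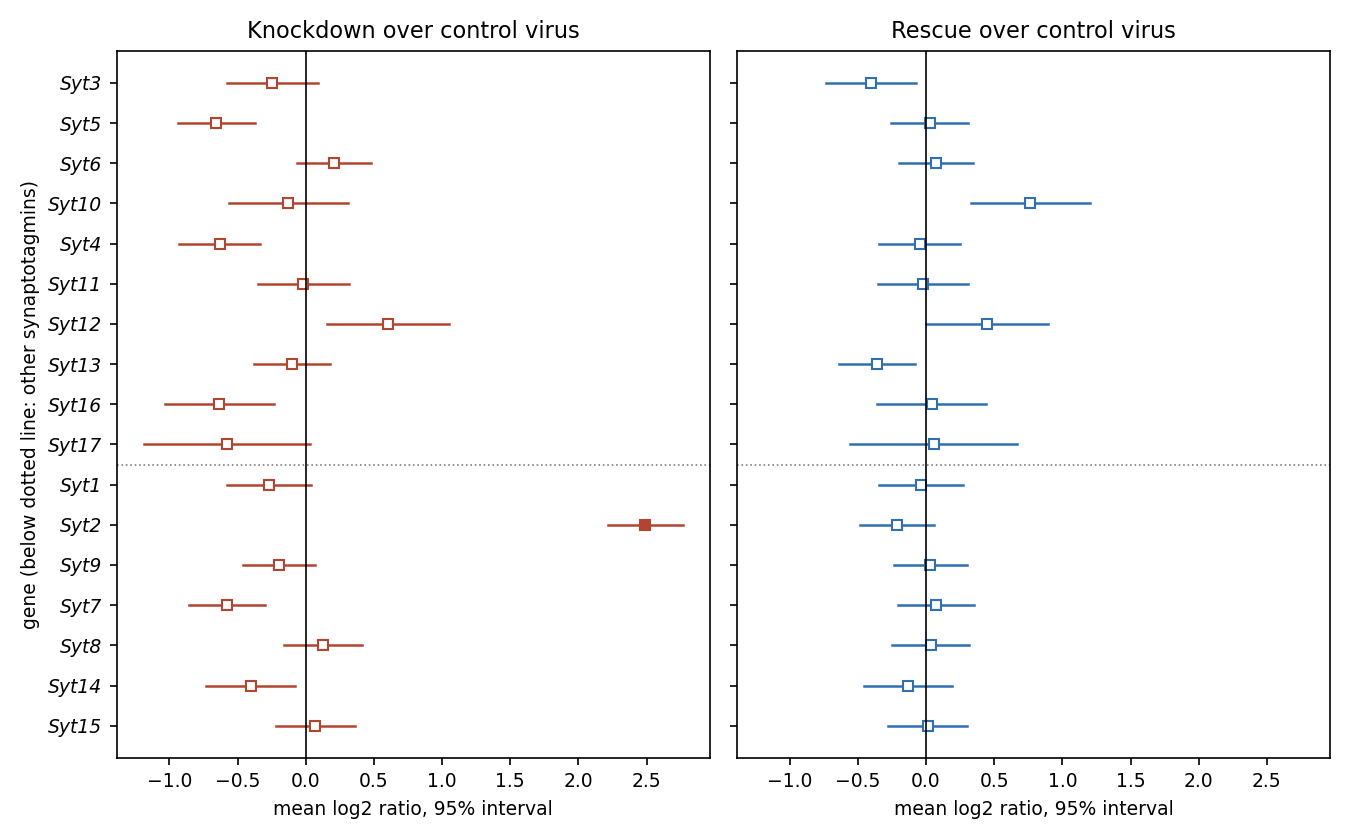
Mean log2 ratio to control virus with its 95% interval from limma for 17 synaptotagmins, knockdown left and rescue right, n = 2 each, with filled squares for an adjusted p under 0.05. Syt2 is the single filled point, at 2.49 in the knockdown, and the 10 genes described here lie between -0.66 and 0.77 across both panels.

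The other members of the family give the scale of these values. Syt2, the fast sensor of caudal brain regions, was at 2.49 in the knockdown (SE 0.12, n = 2, adjusted p = 0.000475) and at -0.21 in the rescue (SE 0.12, n = 2, adjusted p = 0.744). The slow sensor Syt7 had log2 ratios of -0.50 and -0.65 in the knockdown, against 0.16 and -0.01 in the rescue, values close to those of Syt4 and Syt5. Syt1 was at -0.08 and -0.46 in the knockdown, against -0.06 and -0.02 in the rescue, and Syt9 at -0.23 and -0.16 in the knockdown, against 0.05 and 0.01 in the rescue.

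The comparison of knockdown with rescue, in which both groups carry the shRNAs and the control array cancels within a repeat, asked which of these transcripts differed with the resistant calmodulin absent or present. The groups also differed in the targeted Calm3, by 1.09 and 1.15 within the repeats, with the rescue lower. Its mean difference was 1.12 (adjusted p = 0.613 in limma, or 0.0169 under the replicate block). Syt10, Syt5, Syt16 and Syt4 were lower in the knockdown than in the rescue without overlap (4 of 10, against 15.1% of all genes), and Syt6 and Syt13 were higher without overlap (2 of 10, against 16.5%). In limma 0 of the 10 passed, against 0.0702% of all genes, and 4 had an unadjusted p under 0.05 (Syt4, Syt5, Syt10 and Syt16, against 6.82% of all genes). Under the replicate block 0 of the 10 passed, against 0.617% of all genes. Standard errors and intervals given below come from the fit without the block unless named, which keeps the spread of the shared control arrays. The median difference over the 10 was -0.29, against 0.02 for all genes. It depended on single samples, at -0.08 without rescue repeat 2 and -0.14 without rescue repeat 1.

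**Figure D3:**
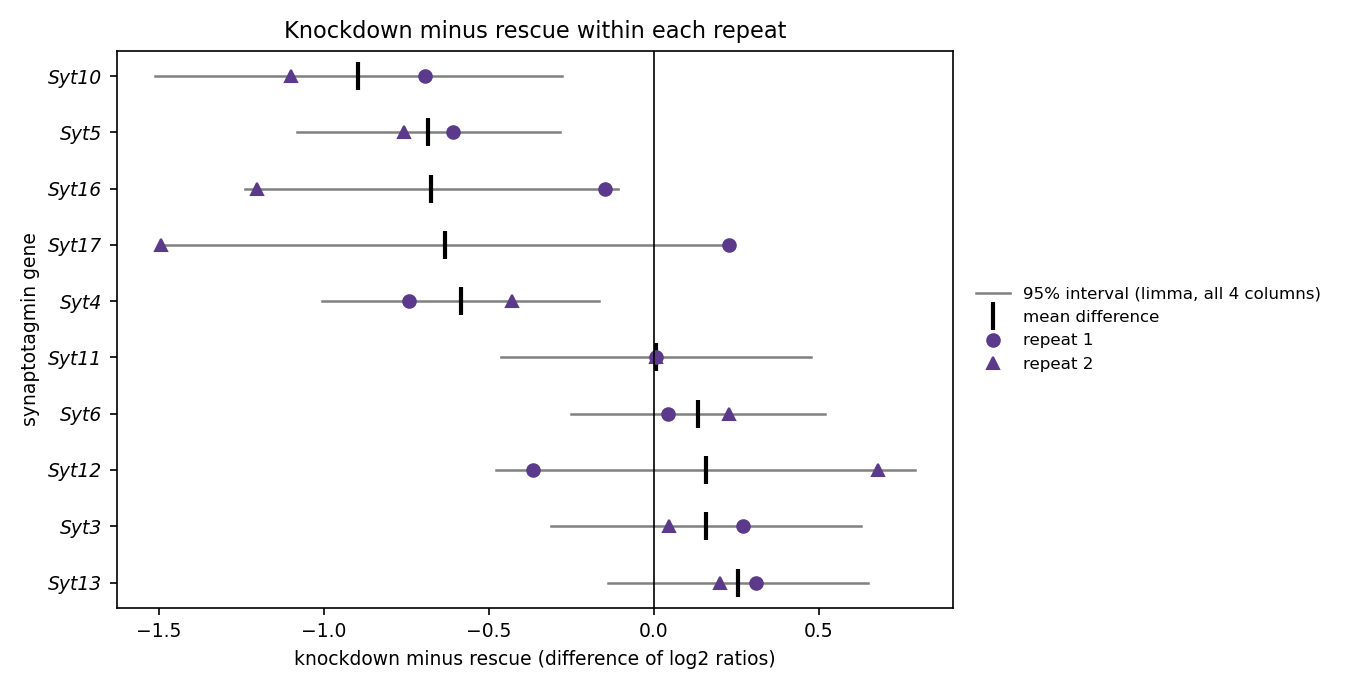
Knockdown minus rescue, as the difference of log2 ratios within repeat 1 (circles) and repeat 2 (triangles), with the mean (black tick) and its 95% interval from limma without the replicate block (grey) for each of the 10 synaptotagmins. Syt10, Syt5, Syt16 and Syt4 lie left of 0 in both repeats, and for Syt17 and Syt12 the repeats lie on opposite sides of 0.

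Syt10 had the largest mean difference of the 10, although Syt4 lay farther from 0 within repeat 1 and Syt16 and Syt17 within repeat 2. It was -0.69 within repeat 1 and -1.10 within repeat 2, a mean of -0.90 (SE 0.27, 95% interval -1.51 to -0.28). The knockdown stood at 53.7% of the rescue (adjusted p = 0.446 in limma, or 0.0586 with SE 0.16 under the replicate block). Both repeats gave the same direction. The mean was -0.51 without rescue repeat 2.

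Syt5 differed by -0.61 within repeat 1 and -0.76 within repeat 2. The mean was -0.68 (SE 0.17, 95% interval -1.08 to -0.28), which put the knockdown at 62.3% of the rescue (adjusted p = 0.341, or 0.0995 under the replicate block). For Syt4 the differences were -0.74 and -0.43, with a mean of -0.59 (SE 0.18, 95% interval -1.01 to -0.17, adjusted p = 0.467, or 0.161 under the block). These genes had the most even differences among those below -0.5.

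Syt16 and Syt17 had means of similar size that came almost wholly from repeat 2. Syt16 differed by -0.15 within repeat 1 and -1.20 within repeat 2 (mean -0.67, SE 0.25, adjusted p = 0.591, or 0.284 under the block). Syt17 differed by 0.23 and -1.49 (mean -0.63, SE 0.38, adjusted p = 0.920, or 0.554 under the block), so its direction turned between repeats.

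The remaining means were small beside their intervals. Syt13 was 0.25 higher in the knockdown (95% interval -0.14 to 0.65), with 0.31 and 0.20 within the repeats. Syt3 differed by 0.16 (-0.31 to 0.63) and Syt6 by 0.13 (-0.25 to 0.52). Syt12 also had a mean of 0.16 (-0.48 to 0.79), from -0.37 within repeat 1 and 0.68 within repeat 2. Syt11 differed by 0.0063 and 0.0052 within the repeats, with an interval from -0.46 to 0.48 (SE 0.20, or 0.15 under the replicate block). Its interval holds the gap between repeats, which cancels in the differences within a repeat. Each of these intervals includes 0, and none is narrow enough to show that knockdown and rescue were equal.

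The genes whose 4 log2 ratios lay nearest to those of the 3 synaptotagmins farthest from control were taken by Euclidean distance over 4 columns, among 17124 genes. Nearest to Syt10 were Rasgrp1 (distance 0.386), Arhgap10 (0.451) and Slitrk2 (0.465). Rasgrp1, an activator of Ras that binds calcium and diacylglycerol, had log2 ratios of -0.43 and 0.13 in the knockdown, against 0.22 and 0.83 in the rescue. Syt12 lay nearest to Tnfrsf12a (0.187), Sdc1 (0.252) and Cdsn (0.264), and Syt17 to Plxnd1 (0.280), Zdhhc22 (0.387) and St6gal2 (0.389). Plxnd1, a semaphorin receptor, shared the split rescue of Syt17, at -0.70 and 0.57. With 4 values that share 2 control arrays, this likeness is a description.

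Gene lists around the synaptotagmins were read in the same fit. For scale, 16.0% of all genes in the knockdown, 7.44% in the rescue and 6.82% for their difference had an unadjusted p under 0.05. Under the replicate block 5.39%, 0.125% and 0.617% of all genes passed. Of 17 proteins with tandem C2 domains outside the family, 0 passed in limma in the knockdown (median -0.18, with 6 at an unadjusted p under 0.05), and 1 was higher and 3 lower under the replicate block. The largest knockdown means there were those of Doc2b, a calcium sensor of exocytosis, at -1.04 (adjusted p = 0.0886, from -0.56 and -1.53), and Esyt1, a lipid-transfer protein of membrane contacts, at 0.98 (0.0865, from 0.53 and 1.43). Rabphilin, Rph3a, followed at -0.94 (0.0941, from -0.92 and -0.95) and was the farthest of these in repeat 1. All 3 passed under the block (adjusted p = 0.00826, 0.0129 and 0.0175). The rescue median of the 17 was 0.01. Among 8 measured copines, calcium-dependent membrane-binding proteins, Cpne5 fell (log2 -0.83, adjusted p = 0.0415) and it was also lower than in the rescue (-1.37, adjusted p = 0.0499). The knockdown call was lost under quantile normalization (adjusted p = 0.0833) and without a rescue sample, where the spread rests on the knockdown pair alone. Cpne5 was at -0.78 in knockdown repeat 1 and -0.88 in repeat 2. Under the block 3 copines were lower in the knockdown. The copine medians were -0.31 in the knockdown, against -0.01 in the rescue.

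Syt4 and Syt10 act on vesicles for neuropeptides and growth factors. Of 17 measured dense-core vesicle genes, 0 passed in limma in the knockdown, the rescue or their difference (7, 6 and 5 at an unadjusted p under 0.05), and under the replicate block 3 were lower in the knockdown, 1 was higher in the rescue and 1 was lower in the knockdown than in the rescue. Their medians were -0.22 in the knockdown and 0.11 in the rescue, and -0.34 for knockdown against rescue. The largest differences from the rescue were those of Pcsk1, a prohormone convertase (-1.36, adjusted p = 0.616), Bdnf (-0.91, adjusted p = 0.401) and the granin Scg2 (-0.75, adjusted p = 0.739). Pcsk1 was the gene that passed under the block in the rescue (adjusted p = 0.0482) and for knockdown against rescue (0.0265). Of 10 measured core fusion genes Vamp1, a vesicle SNARE, rose 2.82-fold in the knockdown (adjusted p = 0.00970) and 0 fell, while under the block 2 were higher and 2 lower, with medians of -0.26 in the knockdown and 0.02 in the rescue. Of 8 AMPA receptor and trafficking genes 0 passed in limma in the knockdown (3 at an unadjusted p under 0.05), with medians of -0.17 in the knockdown and 0.08 in the rescue, and the scaffold Grasp lay farthest from control in the knockdown, at -0.996 (adjusted p = 0.0885, from -1.46 and -0.53). Under the block 2 of the 8 were lower in the knockdown, among them Grasp (adjusted p = 0.0129).

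Syt4 and Syt10 are also inducible by activity. The 20 listed activity-regulated genes had a rescue median of 0.41 with 19 of 20 means above control, against 9445 of 19938 for all genes. In the knockdown the median was -0.34, but the repeats were unlike. Every listed gene was below control in repeat 1, while in repeat 2 several lay above it. Fos had -0.58 and 1.06 and Nptx2 -1.34 and 0.29, against -1.51 and -0.49 for Arc. Homer1, a postsynaptic scaffold, fell (log2 -1.09, adjusted p = 0.0140, from -1.14 and -1.05). This call was lost under quantile normalization (adjusted p = 0.0575) and without a rescue sample, where the spread rests on the knockdown pair alone. Under the block 5 of the 20 were lower. Knockdown against rescue gave a median of -0.90, with Homer1 lower (-1.38, adjusted p = 0.0499) and 7 lower under the replicate block. In the rescue 0 passed in limma (10 at an unadjusted p under 0.05) and 3 were higher under the block. Bdnf and Pcsk1 stand in this list and in that of dense-core vesicles. The farthest from control in the rescue were Ptgs2, the inducible cyclooxygenase, at 2.28 (adjusted p = 0.328, or 0.00898 under the block), Inhba, a subunit of activins, at 1.26 (0.467, or 0.135), and Npas4, an activity-induced transcription factor, at 1.12 (0.613, or 0.0474). Their rescue log2 ratios were 2.29 and 2.26 for Ptgs2, 1.93 and 0.59 for Inhba and 0.54 and 1.70 for Npas4, so the higher repeat differed between these genes.

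**Figure D4:**
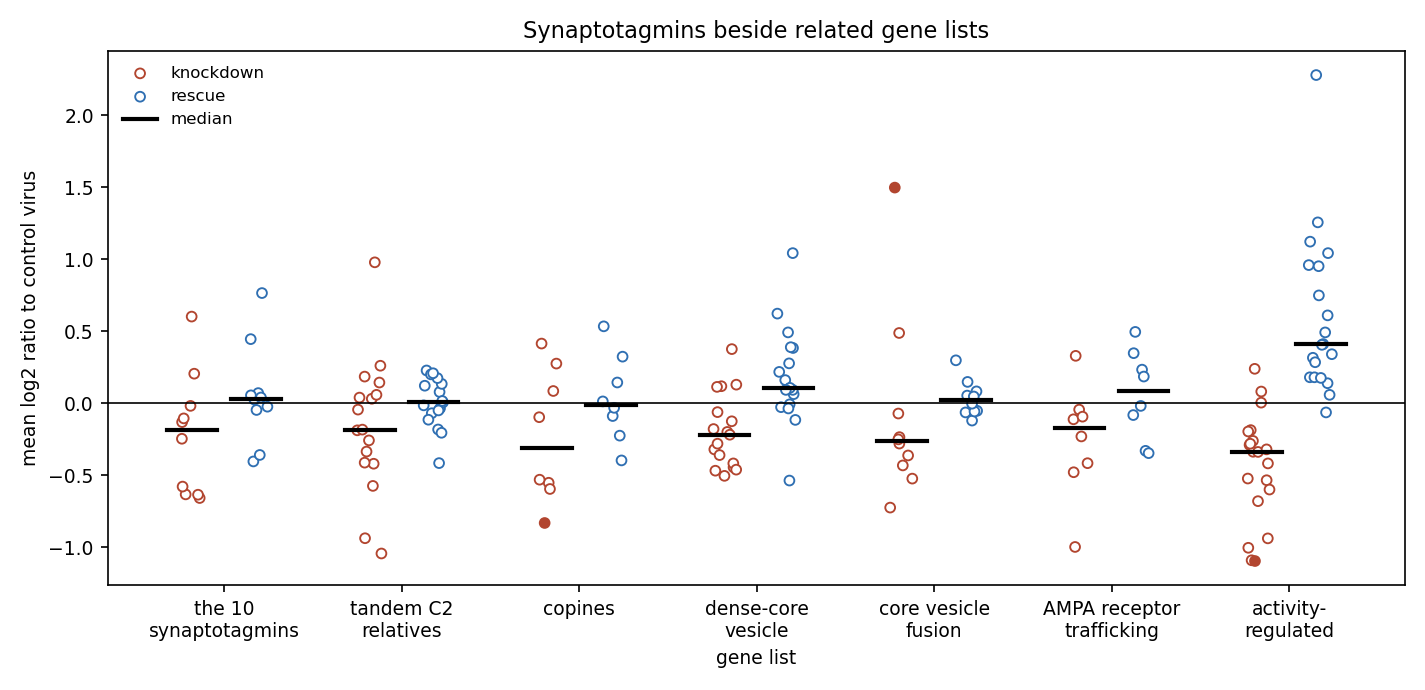
Mean log2 ratio to control virus of each gene in 7 lists, knockdown left (red) and rescue right (blue), n = 2 each, with black bars for the median and filled points for an adjusted p under 0.05. The 10 synaptotagmins have medians of -0.19 in the knockdown and 0.03 in the rescue, and activity-regulated genes have -0.34 in the knockdown and 0.41 in the rescue. Points are means, and for several activity-regulated genes the knockdown repeats lay on opposite sides of control.

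Markers of the cells in these cultures were read in the same samples. In the knockdown the median was -0.31 for 4 neuronal markers, -0.80 for 3 measured markers of excitatory cortical neurons and -0.37 for 5 interneuron markers. It was 0.35 for 6 astrocyte markers, all 6 with means above control, as were 10058 of all 19938 genes. In the rescue these medians were 0.08, -0.12, -0.43 and -0.13. The 4 neuronal markers were uneven, from -0.64 (Rbfox3) to 0.09 (Tubb3) in the knockdown and from -0.46 (Tubb3) to 0.30 (Snap25) in the rescue. For 4 oligodendrocyte-lineage, 5 microglia, 4 endothelial and 5 fibroblast markers the knockdown medians were -0.02, -0.17, 0.10 and 0.16, and the rescue medians -0.05, -0.18, 0.12 and -0.15. Of the 36 measured markers 0 passed in limma in the knockdown and 0 in the rescue. An unadjusted p under 0.05 was reached by 11 and 10 of them, against 16.0% and 7.44% of all genes. The smallest adjusted p was 0.0583, among interneuron markers in the knockdown. Under the replicate block, in which Syt4 and Syt5 passed, 1 neuronal, 2 excitatory and 2 interneuron markers were lower and 2 astrocyte markers higher in the knockdown, and 1 interneuron marker was lower in the rescue. In whole cultures fewer neurons and less RNA per neuron cannot be told apart, and the part of cell composition in the lower Syt4, Syt5, Syt16 and Syt17 ratios was not tested.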

How the data were processed

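The authors deposited linear ratios per probe set (Affymetrix mouse Gene 1.0 ST arrays), of each knockdown or rescue array to its repeat's control array, per the labels. Background correction, summarization and normalization are not given in the sources used here, and precision is limited by how few arrays there are. Of 35399 probe sets, 21789 had exactly 1 gene symbol in the platform annotation, 1621 several, and 11989 none listed. Entrez identifiers matched 21698 of them to RefSeq names of GRCm38.p6, and 0 symbols changed. Log2 ratios were averaged per symbol.

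A linear model (lmFit, then eBayes, two-sided tests) was fitted to all 19938 genes in R 4.3.3 using limma 3.58.1, with a coefficient per group tested against 0 and their difference. The 4 columns shared the spread (2 residual and 6.11 prior degrees of freedom), and p-values were adjusted by Benjamini-Hochberg over all genes. Knockdown and rescue columns of a repeat share a labelled date, so the repeat was also fitted as a replicate block, and same-repeat deviations correlated at 0.305 across genes. That block also removes the repeat spread of the control array. The means against control still carry that spread, so block p-values against control are too small. For knockdown against rescue the control array cancels. No label names separate cultures for the repeats. P-values therefore measure only the spread of these samples, possibly technical. The 10 genes, the gene lists and the tests were chosen with earlier results of these data known. All 10 genes were named, and of each list those past the threshold, or up to 3 with the largest means. Alternatives were column centring, quantile normalization, every probe set tested on its own, the most extreme probe set per symbol, and leaving out each column. The fit was tested on simulated data.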

Additional observations from a re-analysis of the deposited data

Results flagged for a closer look

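None of the 10 synaptotagmins had knockdown and rescue samples wholly on opposite sides of control. Of the other genes named, 4 were picked out because their knockdown and rescue effects differed in limma, Syt2 by 2.70, Vamp1 by 1.44, Homer1 by -1.38 and Cpne5 by -1.37 (log2, knockdown minus rescue, adjusted p = 0.00387 for Syt2 and 0.0499 for the others, n = 2 per group). The calls for Vamp1, Homer1 and Cpne5 were lost with centred columns, under quantile normalization and with the most extreme probe set per symbol. All 4 calls, that for Syt2 included, were lost without a rescue sample. The spread of such a fit rests on the knockdown pair alone, so its p-values are not read. A further 5 had knockdown samples on one side of control and rescue samples on the other, with a difference that did not pass in limma: Npas4 (-2.21, adjusted p = 0.360, or 0.00570 under the replicate block), Inhba (-1.85, adjusted p = 0.306), Grasp (-1.49, adjusted p = 0.194, or 0.0177 under the block), Bdnf (-0.91, adjusted p = 0.401) and Syt9 (-0.23, adjusted p = 0.988).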

How the results depend on the processing

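Over 5 alternatives other than leaving out a sample, 146 of 150 values of the 10 synaptotagmins kept their direction and their side of the threshold. The exceptions were Syt4 and Syt5, which passed in the knockdown with the replicate block, and Syt11, which turned to 0.0118 in the knockdown under quantile normalization and to -0.00699 for knockdown against rescue with centred columns. Calm2 turned to 0.0135 for knockdown against rescue under quantile normalization. The cause was not tested. Values that turned when a sample was left out ranged as follows. In the knockdown Syt10 ran from -0.32 to 0.0562, Syt11 from -0.20 to 0.16, Scg2 from -0.50 to 0.25, Pcsk1 from -1.18 to 0.54 and Ptgs2 from -1.25 to 0.19. In the rescue Syt4 ran from -0.22 to 0.12, Syt5 from -0.0164 to 0.0697, Syt11 from -0.20 to 0.15, Syt16 from -0.24 to 0.32, Syt17 from -0.59 to 0.71, Rph3a from -0.34 to 0.61, Esyt1 from -0.0642 to 0.0788 and Syt7 from -0.00709 to 0.16. For knockdown against rescue Syt3 ran from -0.0675 to 0.38, Syt11 from -0.17 to 0.18, Syt12 from -0.29 to 0.60 and Syt17 from -1.28 to 0.0160. The count of the 10 past the threshold in the knockdown was 2 with the replicate block and 0 to 3 when a sample was left out, and in the rescue it was 0 to 1 when a sample was left out. Over all genes, 61 passed in the knockdown in the fit reported, against 1074 with the replicate block, 20 under quantile normalization, 0 with every probe set tested on its own and 12 to 1272 when a sample was left out. In the rescue 0 passed, against 25 with the replicate block, 1 under quantile normalization and 0 to 176 when a sample was left out. For knockdown against rescue 14 passed, against 123 with the replicate block, 4 with centred columns, 4 with the most extreme probe set per symbol, 2 under quantile normalization, 0 with every probe set and 0 to 350 when a sample was left out.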
